A study of Mus musculus with 2 samples.

Results

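The genes described here are 10 liver cytochrome P450 genes of families 1 and 2, of the 32285 mouse genes counted: Cyp2e1, Cyp1a2, Cyp2a5, Cyp2c37, Cyp2c50, Cyp2c54, Cyp2c29, Cyp2c39, Cyp2c70 and Cyp2f2. They were chosen by name, as P450 genes of the hepatocytes around the central vein, with earlier results of these data known. Each was followed in barcodes grouped by UMIs (unique molecular identifiers, 1 for each RNA molecule counted). Small barcodes held 200 to under 400 UMIs, middle barcodes 500 to under 1000 UMIs and large barcodes 1000 or more UMIs. All 10 passed the minimum of 50 UMIs set for a comparison, in each of the 3 barcode sizes. The GS_KO library came from the liver of 1 Glul f/f mouse given AAV8-Cre, a virus that carries the recombinase Cre and is meant to delete floxed Glul, the gene of glutamine synthetase. The control library came from 1 Glul f/f mouse given AAV8-GFP. Both mice carried the floxed Glul alleles, were 11 weeks old and had no tumours, and their livers were digested with 0.3 mg/mL collagenase II at 2 weeks after the virus. A 10x Genomics 5-prime library was made from isolated hepatocytes together with purified non-parenchymal cells. Not given in the sources used here are the promoter of the Cre virus, the position of the loxP sites, the strain, the sex and the hour at which the livers were taken. Single-cell and single-nucleus are both used for this assay in the labels. With 1 library of 1 mouse in each group there is no replicate and no test between conditions, and every interval below is a 95% interval of counting error alone. Genotype, virus, animal, digestion and library preparation cannot be told apart.

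Cytochrome P450 enzymes are heme proteins of the endoplasmic reticulum that oxidise drugs, toxins, steroids, fatty acids and bile acids with electrons passed on by P450 oxidoreductase (Por). In the liver lobule most enzymes of families 1 and 2 are made by hepatocytes near the central vein, where beta-catenin signalling and the receptors Nr1i3 (CAR), Nr1i2 (PXR) and Ahr act on their genes. Glutamine synthetase is confined to the innermost ring of the same pericentral hepatocytes. Mouse Cyp2c genes lie side by side on chromosome 19 and arose by repeated duplication, so neighbours can share most of their sequence.

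The Cyp2c sequences are given first because they bear on how far the counts of each gene can be kept apart. Aligned over their transcripts, Cyp2c37 and Cyp2c50 shared 95.9% of bases, Cyp2c50 and Cyp2c54 95.01%, and Cyp2c37 and Cyp2c54 94.8%. Cyp2c29 shared 88.2% with Cyp2c39, and Cyp2c39 shared 93.8% with Cyp2c38, which is no member. Cyp2c70 was the most distant member, at 67.4% to 71.0% to the other 5. Of the first 500 windows of 90 bases of each transcript, the end that a 5-prime library reads, 66.0% were found in no other gene for Cyp2c50, 80.4% for Cyp2c54 and 86.4% for Cyp2c37, and these 3 genes shared windows only with each other. The share was 98.2% for Cyp2c39 and 100% for Cyp2c29, Cyp2c70, Cyp2f2 and Cyp2e1. It was 90.4% for Cyp1a2, which shared windows with Cyp1a1, and 97.2% for Cyp2a5, which shared windows with Cyp2a4 and a pseudogene. The separate values of Cyp2c37, Cyp2c50 and Cyp2c54 are therefore uncertain where the counting could split or drop shared reads, and their sum is given beside them.

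The promoters of the close relatives were somewhat less alike than their transcripts. RefSeq promoter sequences (GRCm38.p6) were matched for 9 of the 10 members, Cyp2c54 being the one named only. The 250 bases before the RefSeq start of Cyp2c29 and Cyp2c39 were 81.9% identical, and those of Cyp2c37 and Cyp2c50 87.8% identical. These 4 are printed 5′ to 3′ because the values of each pair differ in the results below. Capitals mark CTTTGA, the core that TCF/LEF factors of the beta-catenin pathway bind, and AGGTCA, a motif of nuclear receptors, each on either strand.
Cyp2c29 (chr19:39286835-39287084, plus strand): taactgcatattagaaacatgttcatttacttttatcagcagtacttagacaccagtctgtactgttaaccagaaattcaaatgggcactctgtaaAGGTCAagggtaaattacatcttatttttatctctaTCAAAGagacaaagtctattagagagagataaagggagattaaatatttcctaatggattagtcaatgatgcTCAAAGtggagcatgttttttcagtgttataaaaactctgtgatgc
Cyp2c39 (chr19:39510572-39510821, plus strand): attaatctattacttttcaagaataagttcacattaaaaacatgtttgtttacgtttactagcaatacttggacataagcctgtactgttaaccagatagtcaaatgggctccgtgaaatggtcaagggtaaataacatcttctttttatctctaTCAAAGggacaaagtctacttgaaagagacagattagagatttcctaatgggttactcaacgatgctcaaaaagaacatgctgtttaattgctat
Cyp2c37 (chr19:39992174-39992423, plus strand): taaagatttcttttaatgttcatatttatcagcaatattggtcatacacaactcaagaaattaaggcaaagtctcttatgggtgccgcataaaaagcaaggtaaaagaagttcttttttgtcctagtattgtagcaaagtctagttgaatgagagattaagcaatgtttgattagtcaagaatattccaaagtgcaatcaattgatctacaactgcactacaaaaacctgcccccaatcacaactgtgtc
Cyp2c50 (chr19:40089429-40089678, plus strand): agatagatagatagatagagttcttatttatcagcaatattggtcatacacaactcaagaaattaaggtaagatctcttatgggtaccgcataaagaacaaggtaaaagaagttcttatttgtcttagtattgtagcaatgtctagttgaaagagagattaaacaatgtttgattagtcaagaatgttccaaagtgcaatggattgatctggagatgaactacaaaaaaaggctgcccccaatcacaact
CTTTGA was found 2 times before Cyp2c29 and 1 time before each of Cyp2c39, Cyp2c70, Cyp2e1 and Cyp1a2, and 13.8% of 32851 promoters of this length held it. AGGTCA was found before Cyp2c29, Cyp2c70 and Cyp2f2, against 14.02% of all promoters. The D-box core TTATGNAA was found before Cyp2a5, against 3.07% of all promoters. The xenobiotic response core GCGTG was found in none of the 9, against 28.2% of all. A match is a run of letters in this window and not a binding site that was measured.

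The GS_KO library held 57973740 UMIs in 175937 barcodes (median 304) and the control library 61635695 UMIs in 166037 barcodes (median 352). Most barcodes were small, with 143687 GS_KO and 116552 control barcodes in the small size, 10037 and 11989 in the middle size, and 1834 and 1703 in the large size. The labels state at least 10000 cells, and 11871 GS_KO and 13692 control barcodes held 500 UMIs or more. Glul, the targeted gene, stood at 9.78 CPM (counts per 1000000, 421 UMIs) in small GS_KO barcodes against 113 CPM (4319 UMIs) in small control barcodes, and at 31.5 and 124 CPM in large ones. The 12 hepatocyte markers summed to 63274 and 66528 CPM in large barcodes, with none at 0. Of 53 markers of other liver cells, 7 in GS_KO and 15 in control barcodes of that size were at 0, and they summed to 1736 and 537 CPM, of which 12 macrophage markers gave 1214 and 125 CPM. Malat1, an RNA retained in the nucleus, stood at 37630 and 19613 CPM there and at 1365 and 1709 CPM in small barcodes, and mitochondrial genes took 2.42% and 3.64% of UMIs there and 8.38% and 9.32% in small barcodes. The libraries shared 8108 barcode sequences, 1 of them among large barcodes in both. Fewer hepatocytes of a kind and less RNA per hepatocyte cannot be told apart in such sums.

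All members but Cyp2f2 stood lower in GS_KO than in control barcodes of every size. At a threshold of 2-fold, 6 of 10 members were lower in small barcodes, where 3.71% of 12268 genes were that much lower. The count was 7 of 10 in middle barcodes, against 3.12% of 10625 genes, and 5 of 10 in large barcodes, against 5.15% of 8018 genes. No member was 2-fold higher at any size, while 11.0%, 12.8% and 10.4% of all genes were. Because the members were chosen with earlier results of these data known, these shares are a description and not a test. The median log2 ratio of the members was -1.44, -1.55 and -0.93 in order of rising barcode size, beside -0.04, 0.11 and 0.00 for all genes compared. With the free RNA of the small barcodes subtracted, 8 members were past 2-fold in middle barcodes and 3 in large ones, namely Cyp2a5, Cyp2c39 and Cyp2c70. Without barcodes that held 2 or more UMIs of the markers of other liver cells, the counts were 6, 6 and 4. The share of all genes past 2-fold under these alternatives is not given here, so their counts cannot be set against the shares above.

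**Figure D1:**
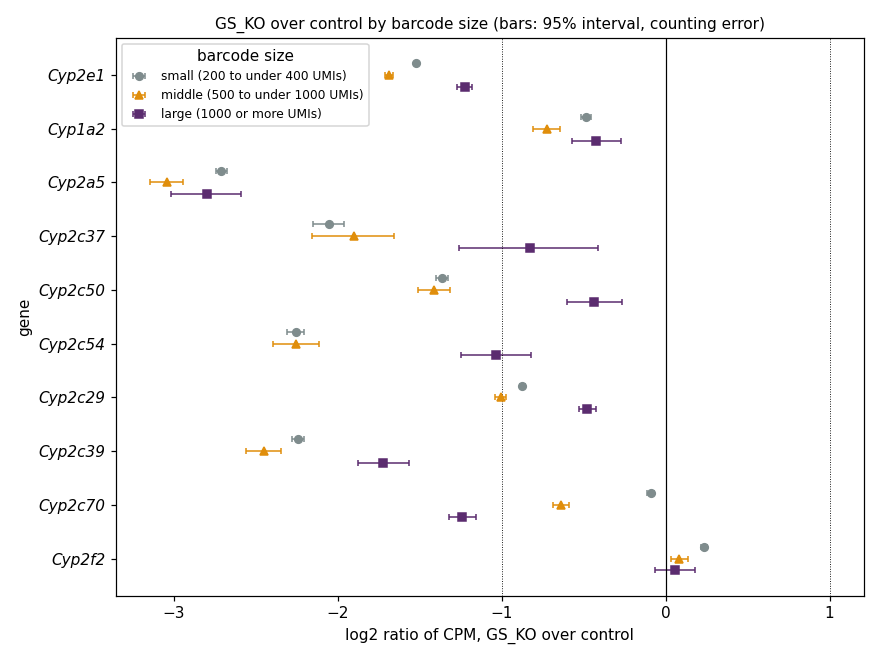
The log2 ratio of CPM, GS_KO over control, is plotted on the x axis for each of the 10 genes (y axis) in small (circles), middle (triangles) and large barcodes (squares), with 95% intervals of counting error and dotted lines at 2-fold. Cyp2a5 lies farthest to the left at every size, between -3.04 and -2.71, and Cyp2f2 is the one gene at or right of 0.

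Cyp2e1, Cyp1a2 and Cyp2a5 metabolise small foreign compounds, and they differed widely in the size of the gap. Cyp2e1 (chr7:140763739-140774987), which oxidises ethanol and acetaminophen, stood at 3670 CPM in GS_KO and 10538 CPM in small control barcodes, at 2650 and 8521 CPM in middle ones, and at 2362 and 5524 CPM in large ones. Its log2 ratios were -1.52, -1.69 and -1.23, with the last between -1.27 and -1.18. That is a level 2.87, 3.22 and 2.34 times lower in GS_KO. After subtraction of free RNA the ratio in large barcodes was -0.88.

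Cyp2a5 (chr7:26835305-26843548), the coumarin hydroxylase that also oxidises nicotine, showed the largest gap of the 10 genes at every barcode size. Its levels were 201 CPM in GS_KO and 1317 CPM in small control barcodes, 128 and 1054 CPM in middle ones, and 87.6 and 610 CPM in large ones. The log2 ratios of -2.71, -3.04 and -2.80 mean that GS_KO held 15.3%, 12.1% and 14.3% of the control level. In large barcodes the ratio was -2.66 after subtraction of free RNA and -2.78 without barcodes that held 2 or more UMIs of other cell types' markers. In the few barcodes of 2000 or more UMIs only 7 GS_KO UMIs were counted, against 67 in the control, and the ratio was -4.16 (-5.62 to -3.13).

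Cyp1a2 (chr9:57676937-57683703), which demethylates caffeine and activates aromatic amines, did not reach 2-fold at any size. Its levels were 362 CPM in GS_KO and 506 CPM in small control barcodes, 279 and 461 CPM in middle ones, and 273 and 365 CPM in large ones. The ratios were -0.48 (-0.51 to -0.45), -0.73 (-0.81 to -0.65) and -0.42 (-0.57 to -0.27). Ahr, the receptor through which Cyp1a2 is induced, stood at 143 CPM in GS_KO and 94.4 CPM in large control barcodes, and at 31.3 and 38.2 CPM in small ones.

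**Figure D2:**
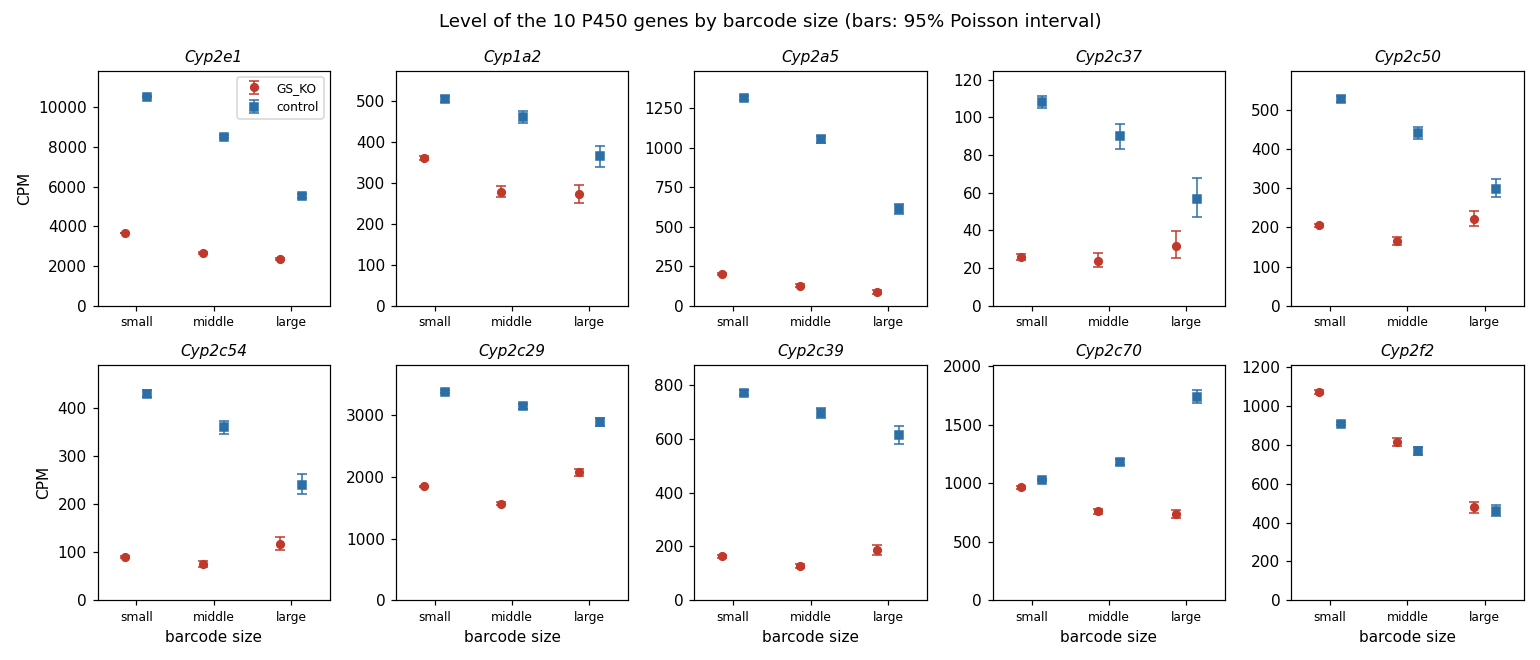
Each panel plots the CPM of 1 gene (y axis, from 0) against barcode size (small, middle and large on the x axis) in the GS_KO library (red circles) and the control library (blue squares), with 95% Poisson intervals. For 9 genes the red points lie under the blue ones at each size, and for Cyp2c70 the gap widens from left to right as the control level climbs to 1735 CPM.

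The 6 Cyp2c members had been grouped as relatives that move in opposite directions between libraries, and in the 3 barcode sizes this was not found: all 18 of their ratios lay below 0, between -2.45 and -0.09, with the whole interval below 0. They differed in size instead. Cyp2c39 (chr19:39510862-39568529), a retinoic acid hydroxylase in the mouse, stood at 163 CPM in GS_KO and 771 CPM in small control barcodes, at 127 and 696 CPM in middle ones, and at 186 and 613 CPM in large ones. Its ratios were -2.24, -2.45 and -1.72 (-1.88 to -1.57).

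Cyp2c29 (chr19:39269405-39330713), its close relative at lower coordinates, which oxidises arachidonic acid, had a smaller gap. Its levels were 1847 CPM in GS_KO and 3382 CPM in small control barcodes, 1567 and 3145 CPM in middle ones, and 2075 and 2888 CPM in large ones. The ratios were -0.87, -1.005 and -0.48 (-0.53 to -0.42), so that the intervals of Cyp2c29 and Cyp2c39 did not meet at any size. Of the sizes compared, only in the 116 GS_KO and 62 control barcodes of 2000 or more UMIs did Cyp2c29 stand higher in GS_KO, at 2693 against 2442 CPM, with a ratio of 0.14 whose interval of -0.04 to 0.33 includes 0. Cyp2c39 was at 210 and 602 CPM in the same barcodes, a ratio of -1.51.

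Cyp2c37, Cyp2c54 and Cyp2c50, which form epoxides and hydroxy acids from arachidonic acid, followed one another on the chromosome at chr19:39992424-40012243, chr19:40037940-40073827 and chr19:40089688-40113950. Cyp2c37 stood at 26.0 CPM in GS_KO and 108 CPM in small control barcodes, and at 31.9 and 56.8 CPM in large ones. Cyp2c54 stood at 89.99 and 430 CPM in small and at 117 and 241 CPM in large barcodes. Cyp2c50 stood at 205 and 527 CPM in small and at 221 and 299 CPM in large ones. GS_KO levels of all 3 were thus lower in small and in large barcodes, by much more in small ones: the ratios were -2.06 and -0.83 for Cyp2c37, -2.26 and -1.03 for Cyp2c54, and -1.36 and -0.43 for Cyp2c50. In middle barcodes they were -1.90, -2.25 and -1.41. In the barcodes of 2000 or more UMIs Cyp2c37 (0.05, -1.19 to 1.52) and Cyp2c50 (0.04, -0.54 to 0.67) showed no gap beyond counting error, while Cyp2c54 gave -0.88 (-1.56 to -0.19). Summed, the 3 genes gave -1.73, -1.75 and -0.69 in order of barcode size, so a gap was present in the sum as well. After subtraction of free RNA large barcodes gave -0.15 for Cyp2c37, -0.43 for Cyp2c54 and 0.09 for Cyp2c50.

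**Figure D3:**
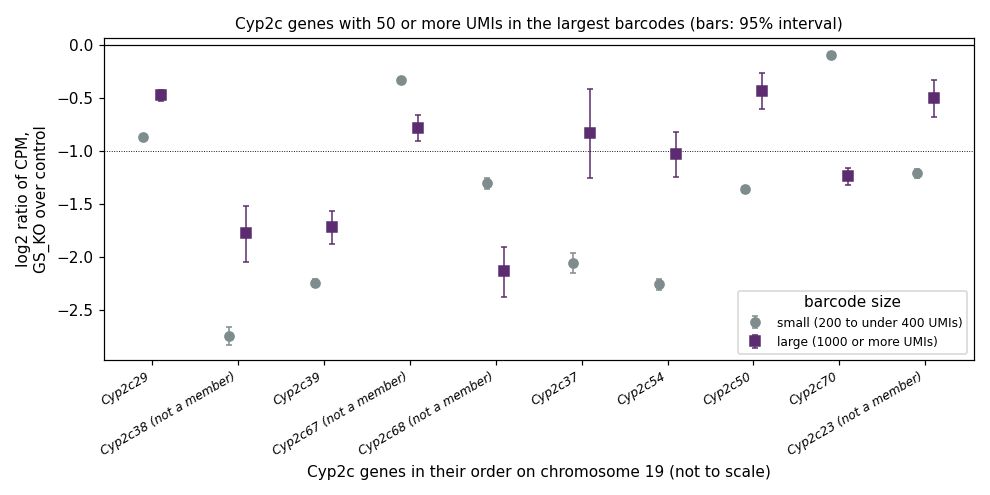
The log2 ratio of CPM, GS_KO over control (y axis), is plotted for the 10 Cyp2c genes with 50 or more UMIs in large barcodes, in their order along chromosome 19 (x axis, not to scale), for small (circles) and large barcodes (squares) with 95% intervals. Cyp2c39 (-2.24 and -1.72) and its neighbour Cyp2c38 (-2.74 and -1.78) lie under Cyp2c29 and Cyp2c67 on either side, and the large-barcode value of Cyp2c70 (-1.24) lies under its small-barcode value (-0.09), as it does for Cyp2c67 and Cyp2c68.

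Cyp2c70 (chr19:40153353-40187333), the enzyme by which mice make muricholic acids, differed from the other 5 Cyp2c members in how its values followed barcode size. It stood at 963 CPM in GS_KO and 1026 CPM in small control barcodes, at 761 and 1183 CPM in middle ones, and at 735 and 1735 CPM in large ones. The ratios were -0.09 (-0.11 to -0.07), -0.64 and -1.24 (-1.32 to -1.16), so its gap was widest in large barcodes, where those of Cyp2c37, Cyp2c50 and Cyp2c54 were narrowest.

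The same CPM values can be read within each library, with large barcodes set over small ones, which restates these gaps and is no further support for them. Read this way, Cyp2c members went in opposite directions. In GS_KO, Cyp2c70 was lower in large than in small barcodes (log2 ratio -0.39), while in the control it was higher (0.76, 0.71 to 0.81). Cyp2c54 showed the reverse, at 0.39 (0.21 to 0.56) in GS_KO and -0.84 in the control. Cyp2c29 and Cyp2c39 were also higher in large GS_KO barcodes, at 0.17 and 0.19, and lower in large control barcodes, at -0.23 and -0.33. For Cyp2c37 and Cyp2c50 the GS_KO values of 0.31 and 0.11 had intervals that include 0, and the control values were -0.92 and -0.82. Outside the Cyp2c genes the libraries were alike in sign, with GS_KO and control ratios of -0.64 and -0.93 for Cyp2e1, -0.41 and -0.47 for Cyp1a2, -1.20 and -1.11 for Cyp2a5, and -1.16 and -0.98 for Cyp2f2.

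Malat1 moved with barcode size too, its own large-over-small ratio being 4.79 in GS_KO and 3.52 in the control, so large barcodes held more Malat1 and differed in this between libraries. Large barcodes were therefore split by their Malat1 share, a division made after these levels were seen. Under 2% Malat1 (216 GS_KO and 948 control barcodes) the ratio was -1.13 for Cyp2c70, -2.08 for Cyp2c39, -1.35 for Cyp2e1 and -0.78 for Cyp2c29. At 2% to under 4% (891 and 720 barcodes) it was -1.33, -1.85, -1.22 and -0.43 for the same 4 genes. The gap of Cyp2c70 in barcodes under 2% Malat1 was -1.13, beside -1.24 in all large barcodes. The part of Malat1 in these gaps, and in their change with barcode size, was not tested. At 4% or more there were 727 GS_KO but only 35 control barcodes. There 6 members had intervals that include 0, namely Cyp2c29 (0.19, -0.10 to 0.51), Cyp2c50 (0.22, -0.58 to 1.30), Cyp1a2, Cyp2c37, Cyp2c54 and Cyp2f2. Cyp2a5, Cyp2c39 and Cyp2c70 alone were past 2-fold there, and the share of all genes in that split is not given here.

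**Figure D4:**
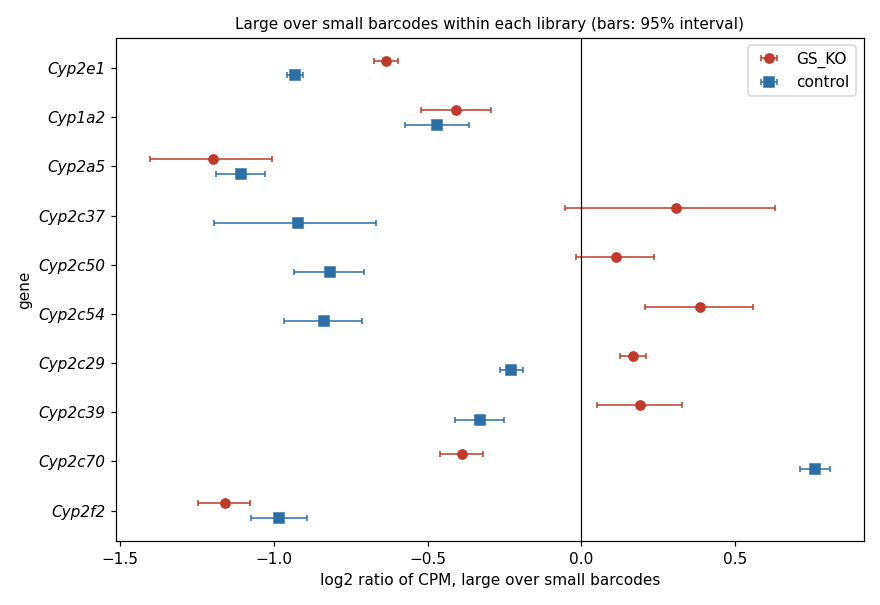
The log2 ratio of CPM in large barcodes over small barcodes (x axis) is plotted for each gene (y axis) in GS_KO (red circles) and control (blue squares), with 95% intervals. Cyp2c70 is right of 0 in the control alone, at 0.76, and the 5 other Cyp2c genes are right of 0 in GS_KO alone, with intervals that include 0 for Cyp2c37 and Cyp2c50.

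Cyp2f2 (chr7:27119909-27133660), which activates naphthalene and in the mouse liver is known from periportal rather than pericentral hepatocytes, was the one member not lower in GS_KO in the 3 barcode sizes. It stood at 1072 CPM in GS_KO and 910 CPM in small control barcodes, at 816 and 769 CPM in middle ones, and at 479 and 461 CPM in large ones. The ratios were 0.24 (0.22 to 0.26), 0.08 (0.03 to 0.14) and 0.06, the last with an interval of -0.07 to 0.18 that includes 0. The middle value changed sign, to -0.03 when all ratios were centred on the median gene and to -0.02 with free RNA subtracted. Among large barcodes the ratio was 0.51 (0.27 to 0.75) under 2% Malat1 and 0.30 (0.11 to 0.49) at 2% to under 4%. At 4% or more it was -0.06 (-0.68 to 0.70). It was also below 0 at 1500 or more UMIs (-0.11, -0.38 to 0.17) and at 2000 or more (-0.19, -0.69 to 0.34), with intervals that include 0.

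Whether the members are pericentral in these libraries was checked with markers that are not members. Large barcodes were ranked in each library by the share of UMIs in 20 pericentral markers minus the share in 20 periportal markers, and cut into 5 equal groups. In large barcodes the periportal markers summed to 10569 CPM in GS_KO and 18923 CPM in the control, and the pericentral ones to 2104 and 3013 CPM. The periportal list thus gave most UMIs of the score. Its member Cps1 ran from 5298 to 1223 CPM between the periportal and pericentral ends in GS_KO, and from 14632 to 3523 CPM in the control. The pericentral list holds Glul, the deleted gene, and the mean score ran between -1.68% and -0.12% in GS_KO and between -2.62% and -0.42% in the control, so groups of the same number do not stand for the same place in the lobule. At the pericentral end 8 members were higher than at the periportal end in GS_KO and 9 in the control, and with periportal markers alone 8 were in both. With pericentral markers alone, Cyp2c37 and Cyp2c50 were instead lower at the pericentral end in the control, with values in the last section. The share of all genes higher at that end is not given here, so these counts are a description only. Alb, which is in neither zonal list, had log2 ratios between ends of -0.43 (-0.47 to -0.38) in GS_KO and 0.17 (0.13 to 0.22) in the control. The intervals of Cyp2a5 in GS_KO and of Cyp2c37, Cyp2c54 and Cyp2c70 in the control include a ratio of 0 between ends. The label pericentral was not borne out for a pair of members: Cyp2f2 was higher at the periportal end and Cyp2c70 was level.

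In GS_KO the slopes were steep. Cyp2c39 stood at 348 CPM at the pericentral and 46.9 CPM at the periportal end of the GS_KO library, against 693 and 498 CPM in the control, so the log2 ratio between ends was 2.86 (2.25 to 3.60) in GS_KO and 0.48 (0.22 to 0.74) in the control. Cyp2c29 followed with 3420 and 815 CPM in GS_KO (2.07) against 3561 and 2059 CPM in the control (0.79). For Cyp2c54 the ratio between ends was 1.86 (1.21 to 2.61) in GS_KO and 0.15 (-0.26 to 0.56) in the control. These 3 genes had intervals that did not meet between libraries, and so did Cyp2e1 (1.097 and 0.43) and Cyp1a2 (1.84 and 0.97). Free RNA, put at 22.8% of GS_KO and 27.5% of control UMIs in large barcodes, was not subtracted from these ends. In small barcodes Cyp2c54 stood at 89.99 CPM in GS_KO and 430 CPM in the control. The part of free RNA in the slopes, and in their difference between libraries, was not tested.

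For the remaining members the ends compared as follows. Cyp2c37 had ratios between ends of 1.92 (0.78 to 3.43) in GS_KO and 0.83 (-0.03 to 1.77) in the control, and Cyp2c50 of 0.84 and 0.56, and for both genes the intervals of the libraries overlapped. Cyp2a5 gave 0.24 (-0.38 to 0.87) in GS_KO and 0.46 (0.21 to 0.71) in the control. Cyp2c70 stood at -0.04 (-0.25 to 0.17) and 0.04 (-0.11 to 0.19). Cyp2f2 ran the other way, with -1.28 (-1.57 to -1.01) in GS_KO and -0.46 (-0.76 to -0.16) in the control, intervals that also do not meet.

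Set group by group, the gap between libraries was smaller towards the pericentral end for Cyp2c39, Cyp2c29 and Cyp2c54. The ratio of GS_KO over control for Cyp2c39 was -3.38 in the most periportal group and -0.99 in the most pericentral one, with -2.06, -2.10 and -1.49 between them. For Cyp2c29 it was -1.34 and -0.06 at these ends, and the last interval, -0.16 to 0.04, includes 0. Cyp2c54 gave -2.15 and -0.44, and Cyp2e1 -1.65 and -0.98. Cyp2c37 gave -1.39 (-2.95 to -0.12) and -0.30 (-1.07 to 0.47), intervals that overlap. Cyp2c50 showed no steady change, with -0.82, -0.72, -0.01, -0.25 and -0.54 from the periportal to the pericentral group. Cyp2a5, between -2.99 and -2.56, and Cyp2c70, between -1.38 and -1.11, kept their gap in all 5 groups. Cyp2f2 was higher in GS_KO in the most periportal group (0.46, 0.22 to 0.71) and lower in the most pericentral one (-0.36, -0.69 to -0.03). Malat1 stood at 38842 CPM in the periportal and 36990 CPM in the pericentral group of GS_KO, and at 23638 and 16636 CPM in those of the control. Neither the part of Malat1 nor that of free RNA in these slopes and gaps was tested.

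**Figure D5:**
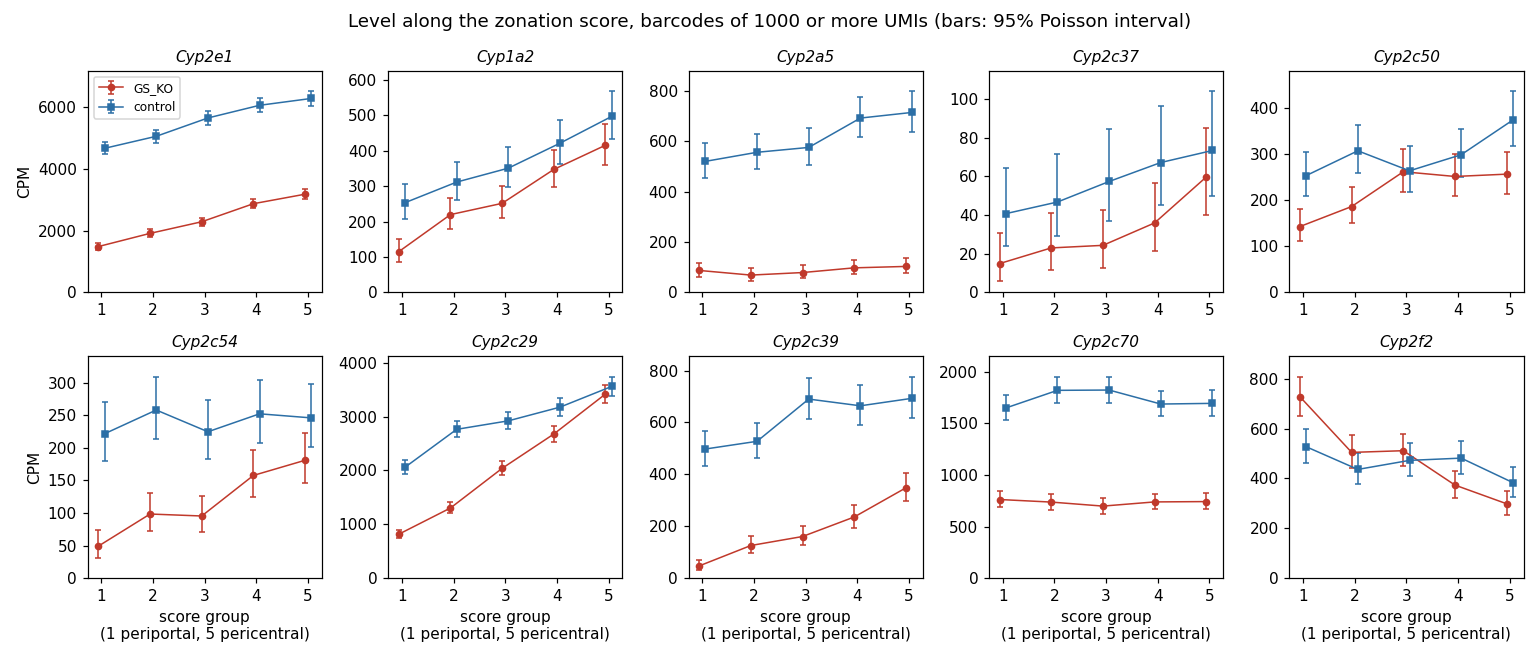
Each panel plots the CPM of 1 gene (y axis, from 0) in 5 groups of large barcodes, ordered by the marker score from periportal (1) to pericentral (5) on the x axis, in GS_KO (red circles) and control (blue squares), with 95% Poisson intervals. The Cyp2c29 lines meet at group 5 (3420 and 3561 CPM), the Cyp2a5 and Cyp2c70 lines stay apart in all 5 groups, with the control Cyp2a5 line climbing to 714 CPM, and the Cyp2f2 lines are lower at group 5 than at group 1.

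The spread of counts between barcodes was compared after thinning each barcode to 1000 UMIs, with the variance over the mean (Fano factor) as the measure, which is 1 for pure counting noise. Cyp2c29 had the highest Fano factor of the members, with 2.71 in GS_KO and 1.74 in the control, although its mean was lower in GS_KO (2.01 and 2.93 UMIs). The Fano factor rises with the mean at a given relative spread, so it does not rank members of unlike mean by unevenness. Cyp2e1, with a GS_KO mean of 2.33 UMIs, had 1.74 in GS_KO, while Cyp2c39 had a GS_KO mean of only 0.19 UMIs. Cyp2c39 had 1.33 in GS_KO and 1.11 in the control, and Cyp1a2 1.24 and 1.08. Cyp2c70 went the other way, with 1.06 and 1.25, at means of 0.72 and 1.71 UMIs. At least 1 UMI of Cyp2c39 was found in 14.7% of GS_KO and 45.4% of control barcodes (18.3% and 52.4% before thinning). Barcodes with 3 or more macrophage marker UMIs, 196 in GS_KO and only 32 in the control, held Cyp2c39 in 10.7% and 46.9%. Their median depths were 1260.5 and 1222.5 UMIs against 1209 and 1190 for all. They also held Cyp2e1 in 78.1% and 100%, so they carried hepatocyte RNA and cannot serve as a background level for Cyp2c39.

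Over the large barcodes, the genes whose counts went most closely with Cyp2c29 in GS_KO were Cyp2e1 (Pearson r = 0.42 over 1834 barcodes), Cyp7b1 (0.40), Sult2a8 (0.40), Slco1b2 (0.37) and Slc16a10 (0.36). Cyp7b1 hydroxylates oxysterols and Slco1b2 takes bile acids and drugs into hepatocytes. In the control, Cyp2c29 went with Tox (0.19 over 1703 barcodes), Cyp2e1 (0.18), Slco1b2 (0.17), Tenm3 (0.15) and Slc1a2 (0.15). The same 5 genes, with Cyp2c29 in the place of Cyp2e1, led the list of Cyp2e1 in GS_KO, whereas in the control Cyp2e1 went with the abundant secreted protein genes Alb, Apoa1, Apoa2, Mup3 and Ttr (0.28 to 0.32).

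Cyp2c39 went most closely with Cyp2c29 in GS_KO (0.31) and in the control (0.14), with Cyp2e1 next in both (0.23 and 0.13). Its other leading genes were Slc25a21, Cyp7b1 and Sult2a8 in GS_KO, at 0.22 to 0.21, and C6, Slc1a2 and Tox in the control, at 0.12 to 0.09. Cyp2f2 went most closely with Alb in both (0.21 and 0.21), followed by Hpx, Hp, Chrm3 and Trf in GS_KO and by Ttr, mt-Co1, Apoa2 and Mup3 in the control. Among pairs of members with at least 300 UMIs each, the correlation ran between -0.15, for Cyp2c29 and Cyp2f2, and 0.42 in GS_KO (21 pairs), and between -0.09 and 0.18 in the control (36 pairs). All of these are over barcodes of 1 library, which share its depth and free RNA, and most are weak.

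Of the 41 other Cyp1 and Cyp2 genes in the files, 25, 21 and 19 held 50 or more UMIs in order of barcode size. Of these, 10, 7 and 5 were at least 2-fold lower in GS_KO and 2, 1 and 1 at least 2-fold higher, with medians of -0.34, -0.45 and 0.08. Among all genes compared, 3.71%, 3.12% and 5.15% were that much lower and 11.0%, 12.8% and 10.4% that much higher. Those lower at every size at which they held 50 UMIs included Cyp2b10, the classic target of Nr1i3, at 2.11 CPM in GS_KO and 12.4 CPM in small control barcodes and at 5.32 and 64.6 CPM in large ones (-2.55 and -3.55). Cyp2b9, whose transcript is female-predominant in mouse liver, gave -2.94, -2.00 and -1.13.

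Several close relatives of the members were among those lower. Cyp2a4, a steroid hydroxylase that shares windows with Cyp2a5, so that reads of the pair may be split, had 14 UMIs in GS_KO and 634 in the control in small barcodes (-5.63, -6.56 to -4.92), and Cyp2a22 gave -4.13, -4.60 and -4.14. Cyp2c38, the neighbour and closest relative of Cyp2c39, gave -2.74, -2.42 and -1.78, and summed with Cyp2c39 the pair gave -2.33, -2.45 and -1.74. Cyp2c68 gave -1.31, -1.68 and -2.14, in the same order of size as Cyp2c70, and Cyp2g1 gave -3.21 and -2.22 in the 2 smaller sizes. The one gene higher at every size was Cyp2d12, at 35.0 CPM in GS_KO and 5.44 CPM in small control barcodes and at 79.8 and 4.58 CPM in large ones (2.68 and 4.06).

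Of 5 electron donors of P450 enzymes, 1 was at least 2-fold lower at every size and none higher. Among all genes compared, 3.71%, 3.12% and 5.15% were lower and 11.0%, 12.8% and 10.4% higher, in order of barcode size. The donor that was lower was Por, at 36.3 CPM in GS_KO and 259 CPM in small control barcodes. It stood at 67.9 and 422 CPM in middle barcodes, and at 136 and 756 CPM in large ones. Its ratios were -2.84, -2.63 and -2.48. Cytochrome b5 (Cyb5a), which assists some P450 reactions, gave -0.55, -0.74 and -0.50.

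Of 20 receptors and factors that act on P450 genes, 19 held enough UMIs. Of these, 6, 5 and 4 were at least 2-fold lower in GS_KO in order of barcode size, with none higher. Among all genes compared, 3.71%, 3.12% and 5.15% were that much lower and 11.0%, 12.8% and 10.4% that much higher. Onecut1, a liver transcription factor, stood at 12.6 CPM in GS_KO and 89.0 CPM in small control barcodes and at 19.6 and 418 CPM in large ones (-2.82 and -4.40). Dbp, Tef and Hlf, clock-output factors that bind D-boxes and act on detoxification genes, gave -6.17, -3.09 and -1.19 in small barcodes and -5.32, -2.94 and -1.34 in large ones. These 3 genes cycle over the day, and the hour of collection is not given for either mouse. Cebpa, a factor of hepatocyte identity, gave -1.02, -1.12 and -0.65.

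Among the receptors, Nr1i3 stood at 57.1 CPM in GS_KO and 114 CPM in small control barcodes and at 206 and 265 CPM in large ones (-0.996 and -0.36). Nr1i2 gave -0.56, -0.69 and -0.94, and Rxra, the partner of both, -0.14, -0.52 and -0.97. Ctnnb1, which encodes beta-catenin, gave -0.01, 0.11 and -0.24, and its partner Tcf7l2 gave 0.22, 0.44 and -0.07.

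Of 9 genes of heme supply and removal, 2, 1 and 1 were at least 2-fold lower in GS_KO in order of barcode size and 1, 1 and 3 higher. Among all genes compared, 3.71%, 3.12% and 5.15% were lower and 11.0%, 12.8% and 10.4% higher, and a count of 1 in 9 higher is close to such a share. Alas1, the first and rate-limiting enzyme of heme synthesis in the liver, stood at 322 CPM in GS_KO and 1477 CPM in small control barcodes, at 254 and 1903 CPM in middle ones, and at 220 and 2677 CPM in large ones. Its ratios were -2.20, -2.90 and -3.61. Hmox1, which breaks heme down, went the other way, at 41.0 CPM in GS_KO and 11.1 CPM in small control barcodes, 93.9 and 18.2 CPM in middle ones, and 37.2 and 7.79 CPM in large ones, with ratios of 1.88, 2.37 and 2.22. Macrophages also make Hmox1, and the 12 macrophage markers summed to more in GS_KO than in the control at the same sizes (1728 and 172, 3825 and 405, and 1214 and 125 CPM), and their part in the Hmox1 values was not tested.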

How the data were processed

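Each library was deposited by the authors as a matrix of UMI counts per gene and barcode, whole numbers that are not normalized, which Cell Ranger 8.0.0 counted, per the file headers, on mm10 per the submitters' processing notes. No source used here gives the filter by which barcodes entered the matrices, and the lowest barcode held 123 UMIs in GS_KO and 119 in the control. UMIs were summed over the barcodes of each size, no doublet caller was run, and sums were scaled to CPM of all genes. Ratios are log2 of GS_KO over control with 0.5 counts added to each sum. Levels have exact Poisson intervals, ratios the matching conditional intervals and shares Clopper-Pearson intervals, all at 95%, and the ratio step was checked on simulated counts. Genes with 50 or more UMIs in both libraries together were compared, and a gene past 2-fold was counted as lower or higher. Positions come from GENCODE genes on mm10.

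The 10 members and all lists were chosen with earlier results of these data known. All members are named. Other Cyp1 and Cyp2 genes are named when past 2-fold one way at all 3 sizes, whatever their UMIs there, with 100 UMIs in at least 1. Partners are named when past 2-fold in at least 2 sizes. Likeness was ranked by Pearson r of log-scaled UMIs among genes with at least 300 UMIs, the 5 highest being named. Ahr and other partners under 2-fold are given as values, chosen after they were seen. Free RNA was taken as the profile of small barcodes, scaled to the median barcode, which made it 22.8% of GS_KO and 27.5% of control UMIs in large barcodes. Transcripts were aligned in place of proteins. The software was biopython 1.88, matplotlib 3.10.9, scipy 1.17.1, pandas 2.3.3 and numpy 2.4.6 under Python 3.11.15.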

Additional observations from a re-analysis of the deposited data

How the results depend on the processing

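No paired analysis was possible because each group has 1 sample. The count of members past 2-fold in large barcodes was 5, and it was 3 with free RNA removed and 3 at a Malat1 share of 4% or more (a split added after the data were seen). Under the other alternatives for that size (other scalings, a mitochondrial limit, no barcodes with markers of other cells, higher UMI minimums, lower Malat1 shares) it was between 4 and 6. In the smaller sizes it was between 6 and 8. Shares of all genes under those alternatives are not given here, so these counts have no such share beside them. With genes of 1 UMI or more, 9.15%, 9.57% and 12.4% of all genes were 2-fold lower and 24.0%, 26.0% and 25.2% higher, in order of barcode size, since thinly counted genes then enter. Of 240 values of single members against the control under alternatives, 13 changed sign, all in Cyp2f2, Cyp2c50, Cyp2c37 and Cyp2c29 and none in a value past 2-fold. Along the zonation score, pericentral markers alone gave -0.26 for Cyp2c37 and -0.06 for Cyp2c50 in the control, against 0.83 and 0.56. Depth limits large barcodes: Cyp2c37 had 78 UMIs in GS_KO and 124 in the control there.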
